A study of Mus musculus with 2 samples.

Results

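The 9 genes described here encode secreted regulators of Wnt signalling: the antagonists Sfrp1, Sfrp2, Sfrp4, Frzb, Wif1, Dkk2 and Dkk3, and the R-spondins Rspo2 and Rspo3. They were taken as a named list out of 32285 genes in the count matrices, and their RNA was followed through the stromal, fibroblast-like, osteoblast-like, endothelial-like and erythroid-like cells of aged mouse bone. The sclerostin gene Sost, the antagonist best known from osteocytes, had no UMI in any cell kept and is therefore not a member.

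Droplet single-cell RNA-seq was run on lineage-negative, CD45-negative (Lin-CD45-) cells of the femur and tibia, bone and marrow together, pooled from 3 untreated male INK-ATTAC mice aged 24 months. INK-ATTAC mice carry a transgene in which the p16Ink4a promoter drives an inducible caspase, and no inducer was given to these animals. The pool was run in 2 lanes, deposited as replicates 1 and 2, which shared 10928 of 11056 cell barcodes, with log10 UMI totals per barcode that correlated at r = 0.999858. The lanes thus held the same cells, and they were summed per barcode and counted as 1 biological sample, so that no test between animals, ages or treatments was possible and every interval below covers counting error only.

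Wnt ligands bind Frizzled receptors together with the co-receptors LRP5 and LRP6, and the signal stabilises beta-catenin, which drives bone formation. Secreted Frizzled-related proteins (the SFRP family, to which Frzb belongs) and WIF1 bind Wnt ligands outside the cell, whereas Dickkopf proteins such as DKK2 bind LRP5 and LRP6. R-spondins act in the opposite direction: they bind LGR receptors and relieve the removal of Frizzled by the ligases ZNRF3 and RNF43, which raises the response of a cell to Wnt.

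Of the 11056 barcodes, 9573 had at least 200 genes and at most 20% mitochondrial UMIs. LEPR stromal cells, the leptin receptor-positive reticular cells of marrow, were those with at least 1 Lepr UMI and Cxcl12 at 5000 CPM (counts per 1e+06 UMIs of a cell or class) or more, and numbered 1877 (19.6% of the cells kept). The gate used Lepr and Cxcl12, so neither is a finding here. The label was checked by 10 LEPR stromal markers that the gate did not use, whose summed level was 21860 CPM in these cells, 2007 CPM in fibroblast-like cells and 20.65 CPM in erythroid-like cells. One of them, the adiponectin gene Adipoq, stood at 1149 CPM. Of the gated cells, 1260 lay in the cluster named LEPR+ stromal, 473 and 140 lay in clusters left unnamed, and 4 lay elsewhere.

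The remaining cells were named from clusters. Erythroid-like cells made up 6432 cells (67.2%), although the sort was for mesenchymal cells. A single cluster with 14 of 14 fibroblast markers also held 11 of 12 endothelial markers, and it was divided after its genes had been seen into 120 fibroblast-like, 45 endothelial-like and 21 osteoblast-like cells. The fibroblast-like cells in turn consisted of 80 cells led by Prg4, Fn1 and Ecrg4 and 40 cells led by Clec3b, Myoc and Gsn, by fold over all other cells. The 80 cells of the Prg4 sub-cluster carried 6 of 11 pericyte markers beside 7 of 14 fibroblast markers, and 24 of them held a UMI of Bglap, Ibsp or Dmp1. Their 10 leading genes also included the cartilage matrix gene Cilp, with Chad, Comp, Fmod and Thbs4. The Sca-1 gene Ly6a had a UMI in 22.5% of them, against 97.5% of the Clec3b sub-cluster. The name fibroblast-like thus covers a mixed set. By the share of markers found its nearest list was that of pericytes, though no pericyte marker was among its 10 leading genes by fold. It kept the name of its parent cluster because only endothelial and osteoblast sub-clusters were made classes of their own. Clusters were built from all genes, and differences between classes are therefore given as values with counting intervals and not as tests. The depth differed between classes, with medians of 5188 UMIs per LEPR stromal cell, 8469 per fibroblast-like cell, 7936 per osteoblast-like cell and 28688.5 per erythroid-like cell. Levels are given as CPM of summed counts. Shares of cells are at full depth, and so reflect these differences in depth, unless thinning of each cell to 1000 UMIs is stated.

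All 9 members are protein-coding genes (GRCm38, GENCODE M21 annotation). Counts came from the 3′ ends of transcripts, so each gene was compared with itself between cells and never with another gene. Sfrp2 (ENSMUSG00000027996, chr3:83766321-83774316, plus strand) shares 464 bases with Gm26771 on the other strand, and Rspo3 (ENSMUSG00000019880, chr10:29452416-29535867, minus strand) overlaps Gm20276 on its own strand and Gm48159 on the other. Reads in those stretches may be assigned with less certainty than those of the other 7 members.

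The upstream sequences of Wif1 and Dkk2 are shown because Wif1 was the member higher in osteoblast-like than in LEPR stromal cells, and Dkk2 had the largest ratio in favour of fibroblast-like cells among the members compared. RefSeq windows on GRCm38.p6 were held for 4 of the 9 members. The window of Wif1 (ENSMUSG00000020218, chr10:121033960-121100650, plus strand) covers the 206 bases at chr10:121033754-121033959 and that of Dkk2 (ENSMUSG00000028031, chr3:132085292-132180304, plus strand) the 250 bases at chr3:132085042-132085291, both on the plus strand and ending at the annotated start of the gene. Capitals mark matches to TATAAA, the TATA box, and to CTTTGA or CTTTGT, the core of TCF/LEF sites, on either strand.
Wif1: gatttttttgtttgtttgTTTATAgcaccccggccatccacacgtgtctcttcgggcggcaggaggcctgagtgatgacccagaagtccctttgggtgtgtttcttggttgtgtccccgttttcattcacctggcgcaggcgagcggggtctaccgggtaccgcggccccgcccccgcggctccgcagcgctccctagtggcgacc
Dkk2: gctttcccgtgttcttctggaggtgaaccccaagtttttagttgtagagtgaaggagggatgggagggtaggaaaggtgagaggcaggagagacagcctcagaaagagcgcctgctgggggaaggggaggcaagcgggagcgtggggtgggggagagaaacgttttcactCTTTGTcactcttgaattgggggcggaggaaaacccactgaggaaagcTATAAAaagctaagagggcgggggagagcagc

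In Dkk2 the TATAAA match began 32 bases and the TCF/LEF match 80 bases before the start, both on the gene's strand. In Wif1 a TATAAA match lay on the minus strand 188 bases before the start, and no TCF/LEF core was found. Among 32851 RefSeq windows cut to the same length, TATAAA was found in 12.4% at 250 bases and 9.38% at 206 bases, and the TCF/LEF core in 27.6% and 24%. The RUNX core, searched as TGTGGT or TGCGGT on both strands, was in neither window and in 18.6% and 15.7% of all windows of those lengths. The Wif1 window was richer in G and C (61.7%, with 17 CpG) than that of Dkk2 (55.6%, with 7 CpG). These matches describe the letters of the windows only.

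The members fell into distinct patterns over the cell classes. Both R-spondins, Sfrp1 and Sfrp4 were at least 2-fold higher in LEPR stromal cells than in fibroblast-like cells, Sfrp2, Dkk2 and Dkk3 were at least 2-fold higher in fibroblast-like cells, Wif1 was within 2-fold, and Frzb had too few UMIs to be compared. Thus 4 of the 8 members compared were higher in LEPR stromal cells, where 21.7% of the 11748 genes compared were, and 3 of 8 were higher in fibroblast-like cells, where 10.5% were. Some of these calls rest on few cells or on 1 sub-cluster. Sfrp2 was within 2-fold without the highest cell of each class. Sfrp1 and Dkk3 were within 2-fold against the Clec3b sub-cluster alone. Genes were compared where both classes together held at least 20 UMIs, taken as the mean of the lanes. Over both lanes LEPR stromal cells held 10749160 UMIs and fibroblast-like cells 1435151. A gene held mainly by fibroblast-like cells thus needed a higher CPM to be compared. Genes higher in fibroblast-like cells are undercounted for this reason, among the members and in the shares over all genes alike. The median log2 ratio of the 8 members was 1.18, against 0.24 over all genes compared. Leaving out either lane gave the same counts of 4 and 3, but the lanes are repeat runs of the same cells, so this does not replicate them.

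**Figure D1:**
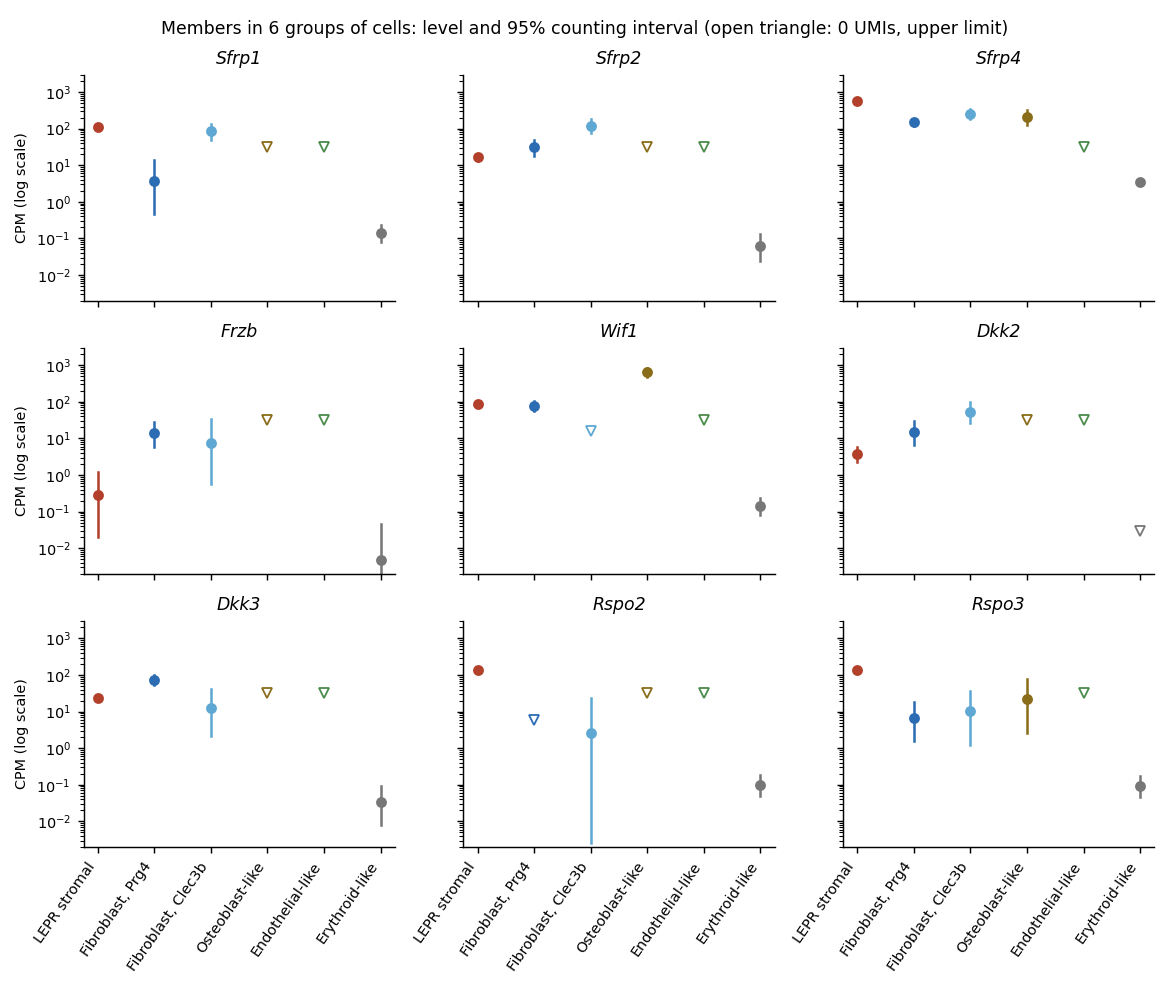
Level of each member (CPM of summed counts, log scale) in 6 groups of cells, with the fibroblast-like cells shown as their Prg4 and Clec3b sub-clusters; bars are 95% counting intervals and open triangles mark upper limits where the count was 0. Rspo2 and Rspo3 stand at 140.6 and 135.5 CPM in LEPR stromal cells and at 21.56 CPM or less where they had a UMI elsewhere, with upper limits of up to 32.35 CPM where they had none, whereas Wif1 is highest in osteoblast-like cells at 641.5 CPM.

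Among the 8 members compared, the R-spondins had the ratios furthest from 0. Rspo2 (ENSMUSG00000051920, chr15:43020794-43170826, minus strand), a ligand of LGR receptors, had 742 and 769 UMIs in LEPR stromal cells in lanes 1 and 2, or 140.6 CPM (130.7 to 151), and was found in 31.65% of those cells. In fibroblast-like cells it had a single UMI over both lanes (0.697 CPM), which placed the log2 ratio at 7.66 with an interval from 4.43 to 17.65. Its level in the 6432 erythroid-like cells was 0.1004 CPM, from 21 UMIs. The 891 cells of unnamed clusters held it at 20.82 CPM (16.02 to 26.61; 6.061% of cells) and Rspo3 at 20.17 CPM. Of these cells, 189 missed the gate but came from a cluster nearest to the LEPR+ stromal list, and 10.4% of the 891 were called doublets. In osteoblast-like cells Rspo2 had no UMI, and the LEPR stromal level was at least 4.346-fold higher than the limit of 32.35 CPM.

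Rspo3, the second R-spondin, had 740 and 717 UMIs in LEPR stromal cells (135.5 CPM, 125.9 to 145.8) and a UMI in 34.74% of them. Fibroblast-like cells had 5 and 6 UMIs (7.665 CPM, 2.659 to 17.24), a log2 ratio of 4.14 (2.97 to 5.68), or 17.68-fold. Osteoblast-like cells held 4 Rspo3 UMIs (21.56 CPM), and the level in LEPR stromal cells was 6.286-fold higher. Neither R-spondin had a UMI in endothelial-like cells, in which a count of 0 allows up to 31.88 CPM, so LEPR stromal cells were at least 4.409-fold higher for Rspo2 and at least 4.252-fold higher for Rspo3. After thinning to 1000 UMIs, Rspo2 was found in 10.87% and Rspo3 in 11.13% of LEPR stromal cells, and neither was found in erythroid-like cells.

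Within the SFRP family the members did not share a pattern. Sfrp4 (ENSMUSG00000021319, chr13:19623104-19632994, plus strand), a secreted Wnt-binding protein also known for effects on bone turnover and phosphate handling, had 3065 and 3183 UMIs in LEPR stromal cells (581.3 CPM, 561 to 602) and was found in 70.7% of them. Fibroblast-like cells had 120 and 133 UMIs (176.3 CPM, 146.9 to 209.8), a log2 ratio of 1.72 (1.47 to 1.99), and 59 of these UMIs came from 1 cell of the Clec3b sub-cluster. Without that cell and the highest LEPR stromal cell the ratio was 2.08. Osteoblast-like cells stood at 210.2 CPM (127.5 to 326.5), with UMIs in 8 of 21 cells. Sfrp4 was thus present in each of these mesenchymal classes and higher in LEPR stromal cells.

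Sfrp1 (ENSMUSG00000031548, chr8:23411502-23449632, plus strand), another Wnt-binding antagonist, had 577 and 588 UMIs in LEPR stromal cells (108.4 CPM, 99.76 to 117.6; 28.66% of cells) and 18 and 19 in fibroblast-like cells (25.78 CPM, 15.4 to 40.5). The log2 ratio was 2.07 (1.41 to 2.83), and it depended on which fibroblast-like cells were used. The Clec3b sub-cluster held Sfrp1 at 84.9 CPM, with UMIs in 32.5% of its cells, close to the LEPR stromal level with a log2 ratio of 0.35. The Prg4 sub-cluster held it at 3.82 CPM, with a log2 ratio of 4.83. Sfrp1 had no UMI in osteoblast-like cells, where the limit is 32.35 CPM, so the LEPR stromal level was at least 3.351-fold higher.

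Sfrp2, a close relative of Sfrp1, went the other way. LEPR stromal cells had 85 and 93 UMIs (16.56 CPM, 13.3 to 20.38) and fibroblast-like cells 40 and 38 (54.35 CPM, 38.65 to 74.3), which gave -1.72 (-2.27 to -1.13) as log2 ratio of LEPR stromal to fibroblast-like cells. This level rested on few cells: 41 of the 78 UMIs came from 1 cell of the Clec3b sub-cluster, and 89.7% came from 3 cells. Sfrp2 stood at 118.4 CPM in the Clec3b sub-cluster, from 3 cells, and at 30.57 CPM in the Prg4 sub-cluster, from 4 cells. Without the highest cell of each class the level in fibroblast-like cells was 25.88 CPM and the log2 ratio was -0.68, which is within 2-fold. Sfrp2 was found in 5.833% of fibroblast-like and 6.127% of LEPR stromal cells, so the shares of cells did not show the difference that the summed counts did.

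Frzb (ENSMUSG00000027004, chr2:80411970-80447625, minus strand), the SFRP family member known from cartilage and joint tissue, had 3 UMIs in 1877 LEPR stromal cells (0.279 CPM) and 9 UMIs in each lane in fibroblast-like cells (12.54 CPM, 5.735 to 23.81). The log2 ratio was -5.49, from too few UMIs to be counted in the comparison. The Prg4 sub-cluster, whose leading gene encodes the joint lubricant lubricin, held it at 14.3 CPM and the Clec3b sub-cluster at 7.72 CPM. Most of the Frzb UMIs in fibroblast-like cells (72.2%) came from 3 cells.

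Both Dickkopf genes were at least 2-fold higher in fibroblast-like cells. Dkk2, which encodes an LRP5 and LRP6 ligand, had 21 and 19 UMIs in LEPR stromal cells (3.721 CPM, 2.273 to 5.747; 1.012% of cells) and 20 and 17 in the much smaller set of fibroblast-like cells (25.78 CPM, 15.4 to 40.5; 6.667% of cells). The log2 ratio was -2.79 (-3.78 to -1.80), or 6.928-fold higher in fibroblast-like cells, and -2.59 without the highest cell of each class. The Clec3b sub-cluster held 54.06 CPM (26.47 to 98.01) and the Prg4 sub-cluster 15.29 CPM (6.6 to 30.12), with intervals that overlapped. In each of them 4 cells held all Dkk2 UMIs, and 3 cells held 95.2% and 93.8% of them. After thinning too few Dkk2 UMIs were left for a comparison.

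Dkk3 (ENSMUSG00000030772, chr7:112116017-112159057, minus strand), a divergent Dickkopf, had 117 and 130 UMIs in LEPR stromal cells (22.98 CPM, 19.1 to 27.41) and 44 and 38 in fibroblast-like cells (57.14 CPM, 41 to 77.51). The log2 ratio was -1.31 (-1.83 to -0.77), or 2.487-fold higher in fibroblast-like cells. Here the Prg4 sub-cluster carried the difference, with 73.6 CPM and UMIs in 23.75% of its cells (6.25% after thinning), against 12.87 CPM in the Clec3b sub-cluster. The value in the Clec3b sub-cluster came from 5 UMIs in 3 cells, and its interval (2.14 to 41.22 CPM) held the LEPR stromal level. The log2 ratio against that sub-cluster alone was 0.84, within 2-fold. The Prg4 sub-cluster also held more RNA of other cells: its erythroid marker list summed to 8899 CPM, against 942.1 CPM in the Clec3b sub-cluster and 2478 CPM in LEPR stromal cells, and the mural cell gene Rgs5 stood at 568.5 CPM in 13.75% of its cells. Few cells carried this: 3 cells gave 78.6% of its UMIs of the globin gene Hbb-bs, and 3 cells gave 74.8% of those of Rgs5. Among all fibroblast-like and osteoblast-like cells, the 15 with a UMI of Rgs5 or Acta2 and none of Bglap, Ibsp or Dmp1 held Dkk3 at 113.7 CPM (57.78 to 200.9), although 3 cells gave 91.3% of its 23 UMIs. The part of these cells in the Dkk3 level was not tested.

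Wif1, which binds Wnt ligands directly, was highest in cells with osteoblast transcripts. It had 480 and 459 UMIs in LEPR stromal cells (87.36 CPM, 79.63 to 95.63; 23.07% of cells), 36 and 45 in fibroblast-like cells (56.44 CPM, 40.41 to 76.71), and 64 and 55 in only 21 osteoblast-like cells (641.5 CPM, 489 to 826.6). It was found in 15 of those 21 cells (71.43%), no cell held more than 24 of the UMIs, and 3 cells held 46.2% of them. After thinning it was found in 23.81% of osteoblast-like and 7.246% of LEPR stromal cells. The level in osteoblast-like cells was 7.344-fold that in LEPR stromal cells (log2 ratio of LEPR stromal to osteoblast-like -2.88, -3.27 to -2.46). Against osteoblast-like cells 1 of 8 members compared was at least 2-fold lower in LEPR stromal cells, where 7.68% of genes were, and 4 of 8 were at least 2-fold higher (Sfrp1, Sfrp4, Rspo2 and Rspo3), where 19.5% of genes were. The osteoblast-like cells were checked by the osteocalcin gene Bglap at 1094 CPM, of whose UMIs 80.8% came from 3 cells, and by Runx2, the osteoblast transcription factor, at 512.1 CPM, against 247.4 CPM of Runx2 in LEPR stromal cells. They also held the cartilage collagen genes Col2a1 and Col11a1 among their leading genes, and their chondrocyte marker list summed to 1472 CPM, against 432.7 CPM in fibroblast-like and 48.38 CPM in LEPR stromal cells. The part of this in the Wif1 level was not tested.

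Cells were also divided by osteoblast transcripts. Of the 141 fibroblast-like and osteoblast-like cells, 45 had a UMI of Bglap, Ibsp or Dmp1, and these held Wif1 at 335.7 CPM (270.8 to 411.5) with UMIs in 55.56% of them. The 45 cells include all 21 osteoblast-like cells, which gave 119 of the 185 Wif1 UMIs. Within the Prg4 sub-cluster alone, Wif1 stood at 180.5 CPM (124.3 to 253.5) in the 24 cells with such a UMI and at 22.02 CPM (9.195 to 44.33) in the other 56 cells. LEPR stromal cells also held Ibsp, at 2969 CPM, so a UMI of it does not by itself mark an osteoblast. In the 81 cells with no UMI of those genes or of Rgs5 or Acta2, Wif1 stood at 14.99 CPM (5.776 to 31.7). Sfrp1, Sfrp2 and Dkk2 had no UMI in the 45 cells, where the limit is 10.89 CPM, and stood at 42.66, 72.64 and 40.36 CPM in the 81 cells. The sets also differ in makeup, since the Clec3b sub-cluster gave 39 of the 81 cells and none of the 45. Few cells carried these levels, with 7 of the 81 cells holding Dkk2 and 3 cells holding 92.1% of the Sfrp2 UMIs. Within the Prg4 sub-cluster Sfrp1 stood at 5.873 CPM (0.7113 to 21.22) and Dkk2 at 23.49 CPM (10.14 to 46.29) in the 56 cells, and with a limit of 16.41 CPM in the 24 cells no difference was detectable for either. Sfrp2 stood at 46.99 CPM (26.86 to 76.3) in the 56 cells, above that limit, with 96.9% of its UMIs in 3 cells. The intervals of Sfrp4 overlapped between the sets (170.6 CPM, 125.3 to 226.8, and 228.3 CPM, 185.6 to 278). The Clec3b sub-cluster had no Wif1 UMI. The Prg4 sub-cluster held it at 77.4 CPM in 20% of its cells, or 1.25% after thinning. The osteoblast marker list summed to 11050 CPM in fibroblast-like cells and 5080 CPM in LEPR stromal cells. The level of Wif1 in fibroblast-like cells thus moved with how many cells with osteoblast transcripts the class took in. The log2 ratio of LEPR stromal to fibroblast-like cells for Wif1 was 0.63 (0.17 to 1.13). It was -0.50 with the osteoblast-like cells counted as fibroblast-like and 1.52 when fibroblasts were chosen by marker genes alone.

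Endothelial-like cells, which held the endothelial cadherin gene Cdh5 at 1095 CPM, had no UMI of any of the 9 members in 45 cells. With the limit of 31.88 CPM this leaves 5 members at least 2-fold higher in LEPR stromal cells, where 17.1% of 11478 genes were: Sfrp4 at least 18.23-fold, Rspo2 and Rspo3 as above, Sfrp1 at least 3.4-fold and Wif1 at least 2.74-fold. For Sfrp2, Frzb, Dkk2 and Dkk3 the levels in LEPR stromal cells were under that limit, so a difference was not detectable at this depth.

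LEPR stromal cells were then clustered again with the members and the other Wnt pathway genes left out of the genes used, to see how the members varied among them. Of 6 sub-clusters, 4 held over 300 cells each and were led, by fold over the other LEPR stromal cells, by Mmp13, Angptl1 and Iigp1 (591 cells), by Dnm3os, Lars2 and Gm42418 (456), by Mrap, Lgals1 and Map1lc3a (371), and by Gm26802, Fos and Egr1 (343). Over these 4 none of the 9 members was 2-fold apart with intervals that did not overlap. The share of all genes this far apart was not computed, so the members cannot be compared with other genes in this respect. Sfrp4 ranged from 489.5 CPM in the Mrap sub-cluster to 660.6 CPM in the Dnm3os sub-cluster, and Rspo3 only from 126.5 to 156 CPM. Of the 4, the Dnm3os sub-cluster had the highest mitochondrial share (median 4.9%) and the lowest depth (median 4171.5 UMIs). Wif1 stood at 119 CPM in the Mrap sub-cluster (99.43 to 141.4), where 1 cell gave 34 of its 259 UMIs, at 100.8 CPM in the Mmp13 sub-cluster (87.17 to 116) and at 69.98 CPM in the Dnm3os sub-cluster. Rspo2 and Sfrp1 were both highest in the Mmp13 sub-cluster, at 177.1 CPM and 132 CPM, and lowest at 121.6 CPM and 87.1 CPM (1.46-fold and 1.52-fold).

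**Figure D2:**
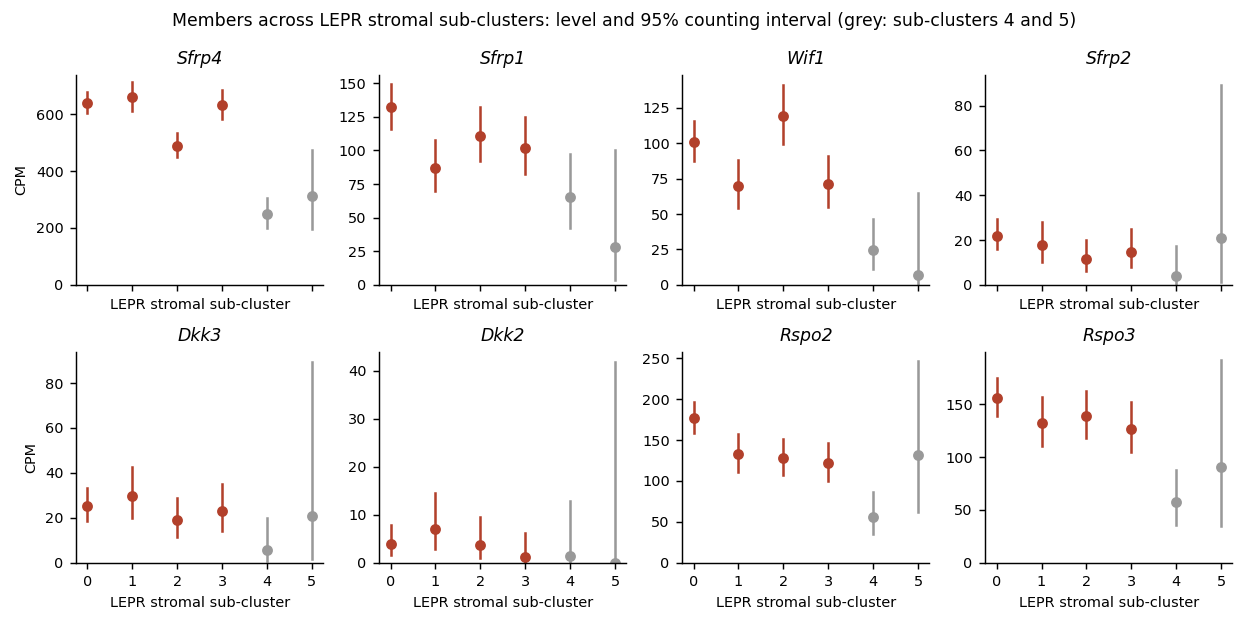
CPM of 8 members in the 6 sub-clusters of LEPR stromal cells (numbered along the x axis, in order of size), with 95% counting intervals; the y axes start at 0 and differ in range. Red points mark the 4 sub-clusters of over 300 cells, among which Sfrp4 ranges from 489.5 to 660.6 CPM, and grey points mark the 2 smallest, which hold less of Wif1 and Sfrp4.

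The 2 smallest sub-clusters stood apart. The sub-cluster led by Hist1h2ak, Mki67 and Pkhd1l1 had 59 cells, of which 45.8% were called doublets, and its erythroid marker list summed to 12870 CPM. The sub-cluster led by Dst, Nktr and Ddx17 had 57 cells with a median of 2155 UMIs and 10.8% mitochondrial UMIs. With them included, 6 of 9 members were at least 2-fold apart with intervals that did not overlap (Sfrp1, Sfrp4, Wif1, Dkk3, Rspo2 and Rspo3). Each had its lowest level in 1 of these 2 sub-clusters. The share of all genes this far apart was not computed, so this count does not set the members apart from other genes. For Wif1 the lowest value was 1 UMI in the 57 cells (6.965 CPM, 0.006841 to 65.12), against 119 CPM in the Mrap sub-cluster. Leaving out called doublets brought the count from 6 to 3, over 5 sub-clusters. The Hist1h2ak sub-cluster, with 27 of its 59 cells called, fell under the minimum of 50 cells and left the comparison. It had held the lowest levels of Sfrp4, Dkk3, Rspo2 and Rspo3.

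Detection of antagonists and of R-spondins was counted cell by cell in LEPR stromal cells. At full depth 1554 of 1877 cells (82.8%) had a UMI of at least 1 antagonist, 972 (51.8%) of at least 1 R-spondin and 850 (45.3%) of both kinds, and 201 (10.7%) had no member. Both R-spondins were found together in 274 cells (14.6%). After thinning to 1000 UMIs the shares were 46.8% for an antagonist, 20.1% for an R-spondin, 8.9% for both kinds and 1.86% for both R-spondins, so the overlap at full depth depended on the number of UMIs per cell.

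LEPR stromal cells were then divided by whether they held a UMI of 1 member, and the CPM of each other member was compared between the cells with and without it, for the 7 members other than Frzb and Dkk2. Over 42 such ratios, 16 had an interval above 0, 2 below 0 and 24 held 0, and only 2 reached 2-fold. Cells with Rspo3 held more Rspo2 (173.2 against 117.4 CPM, log2 ratio 0.56, 0.35 to 0.77) and more Sfrp1 (137.8 against 87.48 CPM, 0.66, 0.42 to 0.90). Both ratios that reached 2-fold concerned Sfrp2, which stood at 24.62 against 11.59 CPM in cells with and without Rspo2 (1.09, 0.45 to 1.73) and at 24.9 against 12.19 CPM in cells with and without Sfrp1 (1.03, 0.40 to 1.67). Dkk3 was lower in cells with Rspo2 (17.55 against 26.33 CPM, -0.59, -1.19 to -0.01) and Rspo2 was lower in cells with Dkk3 (107.5 against 144 CPM, -0.42, -0.85 to -0.02), the only pair with intervals below 0. For Wif1 and the R-spondins the intervals held 0: Rspo2 stood at 133.3 CPM in cells with Wif1 and 143.2 CPM in cells without it (-0.10, -0.35 to 0.13). Cells with a member were also deeper, so the division selected on depth (medians of 6341 and 4673 UMIs with and without Rspo3), and cells are not replicates, so these ratios describe this pool only.

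The genes most like each member were taken over 25 cell units (sub-clusters and clusters of at least 20 cells) by Pearson's r of log2(CPM + 1), among 12958 genes. The units share lanes and free RNA, and 10 of them are erythroid and 6 LEPR stromal, so these values are descriptions. Rspo2 was most like Cldn1 (r = 0.991) and Slc26a7 (0.987), and Rspo3 most like Mme (0.987) and Cyp1b1 (0.986). Wif1 was most like S100b (0.974) and Spp1 (0.967), the osteopontin gene of mineralising bone. Frzb was most like Cilp (0.966), a cartilage matrix gene, and Anxa8 (0.942). Dkk2 was most like Procr (0.946) and Fbln7 (0.943). Sfrp2 and Dkk3 shared Efs among their nearest genes (0.984 and 0.97), with Ebf2 (0.979) and Tlr2 (0.978) as the other gene of each. Sfrp1 was most like Dpep1 (0.982) and Rgma (0.979), and Sfrp4 most like C1ra (0.98) and Antxr1 (0.979).

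The members were also measured in erythroid-like cells. All 8 members compared were at least 2-fold higher in LEPR stromal cells, where 46.9% of 13886 genes were, and Sfrp1, Wif1, Dkk3, Rspo2 and Rspo3 stood in erythroid-like cells at 0.0706% to 0.164% of their LEPR stromal level. For Wif1, 16 of its 30 erythroid UMIs came from 1 cell. Sfrp2 stood at 0.375% from 13 UMIs, Frzb had 1 UMI, and Dkk2 had none, which allows up to 0.0287 CPM. Sfrp4 stood apart from these. It had 364 and 344 UMIs in 432 of 6432 erythroid-like cells (3.386 CPM, 3.043 to 3.758), or 0.583% of its level in LEPR stromal cells. Of the 12 LEPR stromal markers, Lepr had 0.509%, and the other 11, which include the second gate gene Cxcl12, had at most 0.113%. After thinning, Sfrp4 was found in 0.2026% of erythroid-like cells against 35.22% of LEPR stromal cells.

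The level of Sfrp4 in erythroid-like cells was lower in cells with more globin RNA, which accumulates as red cells mature. In the 1917 cells with under 0.5% globin UMIs, Sfrp4 stood at 7.268 CPM (180 and 171 UMIs, in 9.598% of cells), or 1.25% of its LEPR stromal level (1.07 to 1.45). In the 576 cells with 6% or more it stood at 1.459 CPM (3.646% of cells), or 0.251%. Depth differed between these bins, with medians of 10523 and 33922.5 UMIs per cell, and after thinning 4 of 1908 and 0 of 576 cells held a Sfrp4 UMI, too few to compare. The 12 LEPR stromal markers did not move in that way, with medians of 0.119% and 0.107% in those bins, and without Lepr the highest of them was 0.147% and 0.167%. The source of the Sfrp4 UMIs in erythroid-like cells was not tested.

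**Figure D3:**
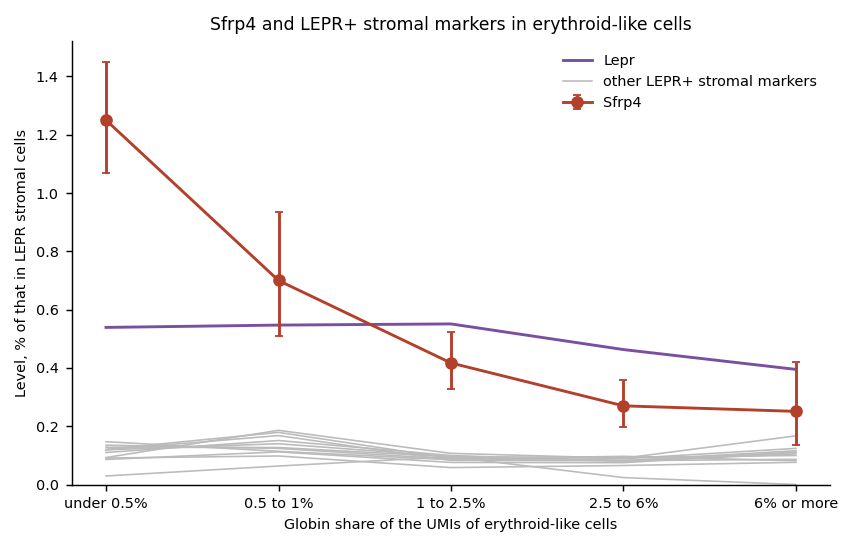
Level of Sfrp4 and of 12 LEPR stromal markers in erythroid-like cells, as a percent of the level in LEPR stromal cells (y axis, starting at 0), by the share of globin UMIs in the erythroid-like cells (x axis). Sfrp4 (red, 95% counting interval) goes from 1.25% in cells with under 0.5% globin to 0.251% in those with 6% or more; Lepr (purple) stays between 0.395% and 0.551%, and the other 11 markers (grey) lie at or below 0.186%.

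The other genes of the pathway were read from lists of 78 genes in 9 groups. Of the 11 other genes listed as antagonists, most of them secreted, 3 had enough UMIs to be compared between LEPR stromal and fibroblast-like cells. Igfbp4, an IGF-binding protein that also inhibits Wnt receptors (3939 against 477.3 CPM), and Apcdd1, a membrane-bound inhibitor (11.81 against 1.394 CPM), were higher in LEPR stromal cells. Cthrc1, a secreted collagen-associated protein, had no UMI in LEPR stromal cells and 52.26 CPM in fibroblast-like cells. Its listing does not show that it acts as an antagonist. Sost, Sostdc1, Dkk1, Dkk4 and Sfrp5 had no UMI in LEPR stromal cells. The Dickkopf co-receptor gene Kremen1 had nearly the same level in both classes (22.98 and 22.99 CPM, log2 ratio 0.00, -0.75 to 0.84), and Rspo1 and Rspo4 had too few UMIs.

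Among receptors of R-spondins, Lgr5 differed in the same direction as the R-spondins, with 67.82 CPM in LEPR stromal and 4.181 CPM in fibroblast-like cells (log2 ratio 4.02, 2.46 to 6.30). Lgr4 was within 2-fold (33.58 and 22.3 CPM), as was the ligase gene Znrf3 (13.4 and 11.85 CPM), and Lgr6 had no UMI in LEPR stromal cells and 20.9 CPM in fibroblast-like cells. LEPR stromal cells thus held RNA of 2 R-spondins, of the receptors Lgr4 and Lgr5 and of Znrf3.

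Of 19 Wnt ligand genes 5 could be compared. Wnt10b and Wnt16 stood at 14.63 and 15.33 CPM in fibroblast-like cells and at 0 and 0.8373 CPM in LEPR stromal cells, but had too few UMIs. Wnt4 was higher in LEPR stromal cells (62.98 against 6.271 CPM), Wnt9a and Wnt11 were higher in fibroblast-like cells (24.39 against 3.814 CPM and 11.15 against 3.07 CPM), and Wnt5a and Wnt5b were within 2-fold. Both genes needed to secrete Wnt ligands were higher in LEPR stromal cells, Wls at 195.3 against 94.07 CPM and Porcn at 27.54 against 9.755 CPM. Of 15 receptor genes compared, 5 were higher in LEPR stromal cells (Fzd3, Fzd5, Fzd7, Fzd9 and Ptk7) and none was higher in fibroblast-like cells (21.7% and 10.5% of all genes compared were), with Fzd5 at 216.9 against 14.63 CPM. The interval of Fzd9 held 0 (-0.28 to 4.10), and Fzd6 and Fzd10 had too few UMIs to be compared.

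Of 11 genes of signal transduction compared, 2 were higher in LEPR stromal cells, a share near the 21.7% of all genes: the transcription factor genes Tcf7l1 (45.68 against 18.12 CPM) and Tcf7l2 (194.6 against 82.92 CPM). Of 10 target genes compared, 4 were higher in LEPR stromal cells and 2 in fibroblast-like cells, against 21.7% and 10.5% of all genes. The 4 were Lgr5, the receptor gene Tnfrsf19 (183.6 against 9.058 CPM) and the feedback inhibitors Nkd1 and Nkd2 (18.42 against 5.574 CPM and 36.47 against 9.058 CPM). The 2 were the cell cycle and growth genes Ccnd1 (33.45 against 4.652 CPM) and Myc (79.43 against 29.58 CPM). Axin2, the target most often used to read the pathway, was low and within 2-fold (6.698 and 9.755 CPM, log2 ratio -0.54, -1.73 to 0.87). The median log2 ratio was -0.01 over the target list and 0.62 over the receptor list, against 0.24 over all genes compared.

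**Figure D4:**
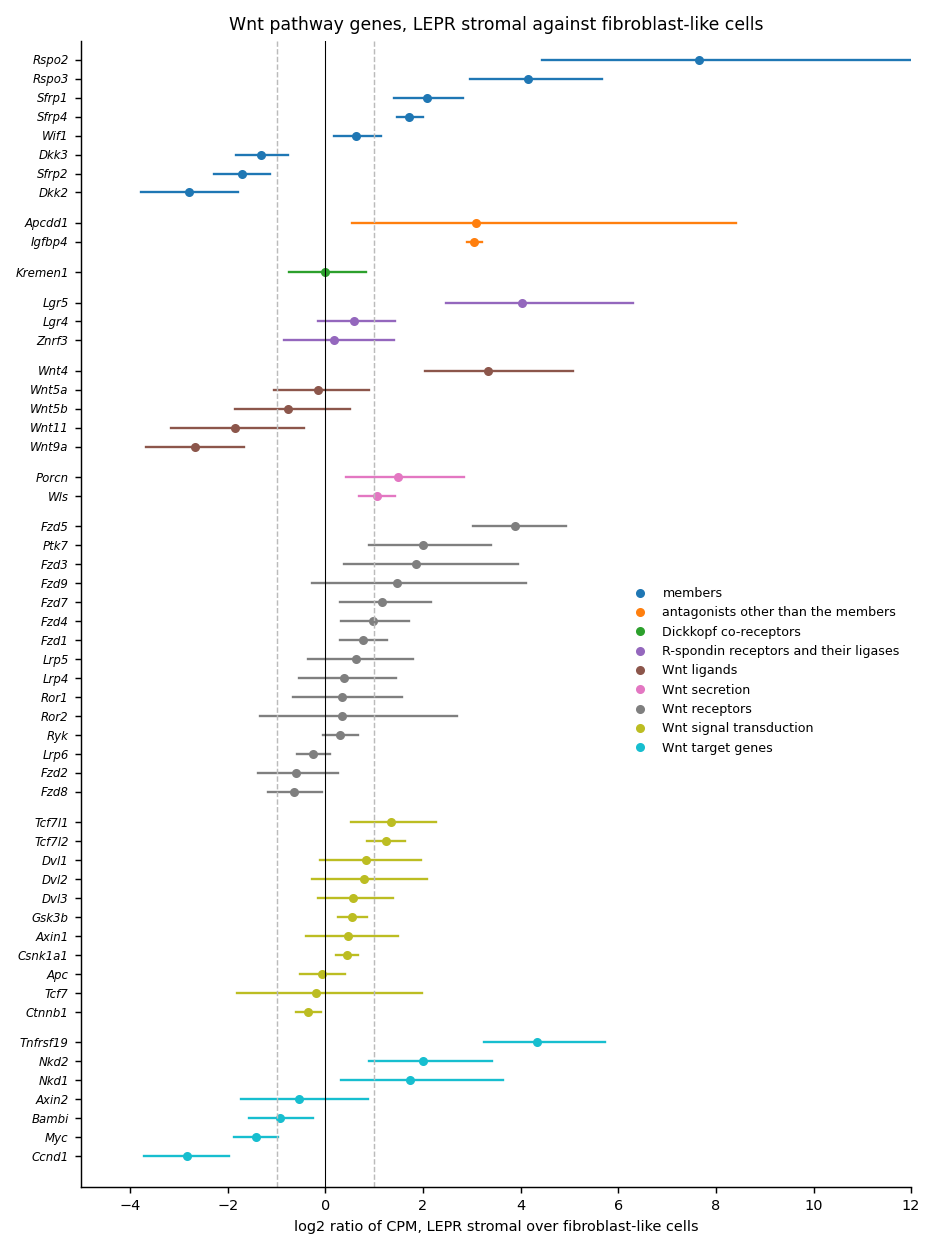
Log2 ratio of CPM in LEPR stromal over fibroblast-like cells for each member and each pathway gene with UMIs in both classes and at least 20 UMIs as the mean of the lanes, which leaves out Frzb, grouped and coloured by list, with 95% counting intervals; dashed lines mark 2-fold and the interval of Rspo2 runs past the axis. Members spread from 7.66 for Rspo2 to -2.79 for Dkk2, and the target genes from 4.34 for Tnfrsf19 to -2.85 for Ccnd1.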

How the data were processed

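Lin-CD45- cells pooled from 3 mice were run in 2 lanes by 10x 3′ chemistry. Per the labels the authors used Cell Ranger with mm10, and the file headers give software version 3.0.2, which differs from the version in the study's methods. The deposited matrices hold raw UMI counts per gene and barcode. The study's methods gave the filters used here (at least 200 genes, at most 20% mitochondrial UMIs, genes in at least 3 cells). The authors' processing notes also name R 4.0.3 and Seurat 4.0. No annotation of cells was used.

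The lanes held 116827845 and 120556381 UMIs in 10968 and 11016 barcodes. Because they shared 10928 barcodes, and the squared lane difference of a count was 0.5589 per UMI, below the 1 per UMI of independent counts, they were taken as repeat runs of 1 library and summed. Intervals (95%, exact Poisson for CPM, exact binomial for ratios) use the mean of the lanes, a count of 0 was read as under 3 UMIs, and all cover counting error only. No p-value was computed. A gene was called at 2-fold or more among genes with at least 20 UMIs.

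Cells were clustered with Seurat 5.3.0 and sctransform 0.4.2 in R 4.3.3 (3000 variable genes, 30 components, resolution 0.8), giving 17 clusters. Clusters were named from 16 marker lists, with a name requiring at least 3 markers found in at least 10% of cells and at 25% or more of the highest cluster. 9 clusters were named erythroid and 4 were left unnamed. The Prg4 sub-cluster, nearest to the pericyte list by this rule, was kept as fibroblast-like. Cells passing the LEPR gate were taken out of the other classes. Sub-clusters used 15 components and resolution 0.5. Scrublet (scanpy 1.11.5, Python 3.11.15) called 186 doublets (1.94%), which were kept and left out in an alternative. For shares, cells were thinned to 1000 UMIs, which left out 16 erythroid-like cells and none of the mesenchymal or endothelial-like classes.

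Named genes were the members, the pathway lists, the 2 genes most like each member, the 3 leading genes of each sub-cluster and marker genes. The members, lists and gates were chosen with earlier results of these data known. Scripts were tested on simulated data. Alternatives changed the filters, doublets, lanes, gate, resolution, level and depth. The 1483 barcodes that failed the filters were not used in the comparisons.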

Additional observations from a re-analysis of the deposited data

Results flagged for a closer look

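The 1483 barcodes that failed the filters on genes or mitochondrial UMIs entered no comparison, but held UMIs of 5 members above the limit of 1.144 CPM that a count of 0 allows in their 5244141 UMIs. Sfrp4 stood at 16.78 CPM (88 UMIs), Rspo2 at 5.339 CPM, Rspo3 at 3.814 CPM, Sfrp1 at 2.098 CPM and Wif1 at 1.526 CPM. Each level was far under that in LEPR stromal cells. The source of these UMIs was not tested.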

How the results depend on the processing

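The counts of members were recomputed with other filters, gates, resolutions, depths and classes. They were also recomputed with 1 lane, which is no replication because the lanes hold the same cells. Members higher in LEPR stromal than in fibroblast-like cells numbered 4 or 5 under every alternative run, and 4 with either lane alone. Wif1 was added under marker gates and under thinning, and took the place of Sfrp1 against the Clec3b sub-cluster alone. Members higher in fibroblast-like cells numbered 2 or 3, and 3 with either lane alone, except after thinning to 1000 UMIs, where 1 (Dkk3) was left because Sfrp2 and Dkk2 had too few UMIs to be compared. Members higher in LEPR stromal than in erythroid-like cells numbered 6 to 8, and 7 to 8 with 1 lane. Members 2-fold apart between LEPR stromal sub-clusters numbered 6, or 5 to 6 with 1 lane, and 0 over the sub-clusters of at least 300 cells, which leave out the 2 smallest. Without called doublets they numbered 3, over 5 sub-clusters instead of 6, since the Hist1h2ak sub-cluster fell under the minimum of 50 cells. The share over all genes was not computed for these counts. The log2 ratio of Dkk3 turned to 0.84 against the Clec3b sub-cluster alone (5 UMIs there), a class chosen after seeing the data. Of the alternative levels 484 of 549 moved by less than their counting interval, and of the log2 ratios 254 of 295 did, 40 moved by more and 1 that had passed 2-fold reversed. The ratio of Wif1, which had not passed 2-fold, also changed sign, to -0.34 with the whole cluster or at resolution 0.4 and to -0.50 at resolution 1.2 or with osteoblast-like cells counted in. The settings chosen after seeing the data were the divisions of the fibroblast-like cluster, the removal of the 2 smallest LEPR stromal sub-clusters, the sub-clusters of at least 300 cells and the removal of single cells. With 1 pool of 3 mice the spread between animals is unknown, and the 21 osteoblast-like, 45 endothelial-like and 120 fibroblast-like cells give wide counting intervals. No paired analysis was possible because there is 1 group.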

Other observations

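Among the 13 cells of the LEPR+ stromal cluster that missed the gate, Sfrp4 stood at 481.7 CPM and Rspo2 at 198.3 CPM, from 34 and 14 UMIs. In the 15 fibroblast-like and osteoblast-like cells with a UMI of the mural genes Rgs5 or Acta2 and none of Bglap, Ibsp or Dmp1, Frzb stood at 54.37 CPM (18.86 to 122.3, 11 UMIs in 2 cells), and Sfrp4 had no UMI, with a limit of 29.66 CPM. In the 81 cells with neither these nor osteoblast transcripts, Sfrp4 stood at 228.3 CPM and Frzb at 5.765 CPM.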
